A study of Homo sapiens with 9 samples.

Results

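Urokinase, its receptor, a second plasminogen activator, matrix metalloproteases and their inhibitors were followed across the H1975 libraries through 9 genes: PLAU, PLAUR, PLAT, SERPINE2, MMP2, MMP14, TIMP1, TIMP2 and TIMP3. They were chosen by gene symbol, with earlier results of these data known, from the 61544 genes counted in each library, and each symbol matched 1 Ensembl identifier. Their values are given as a description, and the adjusted p-values beside them are not independent evidence. H1975 is a human lung adenocarcinoma cell line. All cells received si78, an siRNA against the 3′ end of the endogenous GRP78 (HSPA5) transcript, for 24 h, so the controls were depleted of GRP78 too. They were then transfected for 48 h with the empty plasmid pcDNA3 (Vector), with FLAG-tagged wild-type GRP78 (WT) or with FLAG-tagged GRP78 whose nuclear localization signal carries alanine in place of 3 lysines (NLS Mut). Per group 3 libraries were sequenced, with 17671055 to 27476298 reads counted on genes in a library. Cells without si78 were not analysed here, the plasmids drive GRP78 from a transfected vector rather than from its own promoter, and the labels do not say whether the libraries came from separate cultures, so the p-values measure the spread between these libraries only, which may be technical.

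Urokinase, the product of PLAU, is a secreted serine protease that binds its receptor PLAUR on the cell surface and there converts plasminogen to plasmin. Tissue plasminogen activator, the product of PLAT, does the same on fibrin, and serpins such as SERPINE2 (protease nexin 1) inhibit these activators. MMP14 is a metalloprotease anchored in the plasma membrane that, with TIMP2 as a bridge, activates the secreted gelatinase MMP2, and TIMP1 and TIMP3 are further inhibitors of metalloproteases. In carcinomas these proteins are known for cutting the extracellular matrix at the invading edge, and several of them are made largely by stromal cells.

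Upstream sequences are printed for 4 members. PLAU is the only member that passed the test, PLAUR is its receptor and MMP14 had the smallest difference between WT and NLS Mut, while SERPINE2 had almost no reads and its window holds the most E-boxes. The study concerns ID2, a repressor that keeps basic helix-loop-helix factors off the E-box, so the E-box CANNTG was searched, together with the AP-1 motif TGANTCA and the GC box GGGCGG, on both strands of the RefSeq promoter windows (GRCh38.p14), which run from 250 bases before to 50 bases after 1 start site per gene. Of the 9 members 6 had such an entry. The start site of the window is not always the outermost start of the gene in GENCODE: it lies 1433 bases inside PLAU, 7841 inside SERPINE2, 378 inside PLAUR and 28 inside MMP14. Of the annotated transcripts 1 of 5 of PLAU, 1 of 10 of SERPINE2, 5 of 16 of PLAUR and 4 of 6 of MMP14 start within 50 bases of it, so for PLAU and SERPINE2 the window belongs to 1 of several starts and the others were not searched. The 250 bases before the site are shown 5′ to 3′ on the strand of the gene, and capitals mark an E-box or an AP-1 motif.
PLAU promoter (chr10:73910360-73910609, + strand): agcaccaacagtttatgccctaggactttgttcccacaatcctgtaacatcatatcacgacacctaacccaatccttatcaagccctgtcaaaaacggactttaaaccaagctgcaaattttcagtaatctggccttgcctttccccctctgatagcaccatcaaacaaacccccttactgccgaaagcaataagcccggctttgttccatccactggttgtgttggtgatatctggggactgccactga
PLAUR promoter (chr19:43670170-43670419, - strand): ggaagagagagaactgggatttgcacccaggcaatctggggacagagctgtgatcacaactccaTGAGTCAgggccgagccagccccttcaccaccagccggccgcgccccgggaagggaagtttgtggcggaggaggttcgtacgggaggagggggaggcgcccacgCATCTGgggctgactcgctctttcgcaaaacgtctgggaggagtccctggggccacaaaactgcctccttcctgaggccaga
MMP14 promoter (chr14:22836335-22836584, + strand): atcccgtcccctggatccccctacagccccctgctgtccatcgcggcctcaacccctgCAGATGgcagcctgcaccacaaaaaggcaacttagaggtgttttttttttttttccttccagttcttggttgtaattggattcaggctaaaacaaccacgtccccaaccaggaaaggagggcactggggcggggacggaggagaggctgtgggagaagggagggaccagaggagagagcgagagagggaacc
SERPINE2 promoter (chr2:224031479-224031728, - strand): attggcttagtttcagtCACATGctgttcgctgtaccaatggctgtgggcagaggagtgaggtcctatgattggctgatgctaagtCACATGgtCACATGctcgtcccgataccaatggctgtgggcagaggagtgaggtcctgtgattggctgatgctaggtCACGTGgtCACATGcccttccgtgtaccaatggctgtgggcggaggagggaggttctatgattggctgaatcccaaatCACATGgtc

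The window of PLAU held none of the 3 motifs at this start site, and 68.68% of all 35116 windows of this length held at least 1 E-box (median 1). PLAUR had 1 E-box, CATCTG, 82 bases before the start site, and 1 AP-1 motif, TGAGTCA, 186 bases before it. The AP-1 motif was present in 7.71% of promoters. MMP14 had 1 E-box, CAGATG, and 1 GC box. SERPINE2 had 6 E-boxes, 5 reading CACATG and 1 reading CACGTG, which places it above the 95th percentile of all promoters (4 E-boxes), and CACGTG occurred in 7.26% of promoters. TIMP1 and TIMP3 held no E-box but 2 and 5 GC boxes, a motif found in 44.95% of promoters. These are matches of letters in a window, not measured binding sites.

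Transcripts of 6 members were abundant or clearly counted, MMP2 was counted at the edge of detection, and SERPINE2 and TIMP3 were at or near 0. Of the 9 members 7 passed the filter on low counts. Between genes only levels per length can be compared, and per kb of exon (CPM, the reads of a gene relative to the TMM-scaled size of its library, divided by the exonic length in kb) the order over the 9 libraries was TIMP1 at a mean of 105.5 (97.8 to 111), PLAU at 86.4 (73.8 to 96.9), MMP14 at 64.1 (61.1 to 67.2), TIMP2 at 35.0 (31.9 to 39.1), PLAUR at 24.8 (23.2 to 26.3), PLAT at 3.71 (3.38 to 4.01) and MMP2 at 0.220 (0.0805 to 0.340). In each of the 9 libraries every one of these genes lay above the next, and the ranges of neighbours did not overlap. With the length of the longest transcript in place of all exons, PLAUR (68.5) stood above TIMP2 (53.9). SERPINE2 and TIMP3 could not be separated from each other beyond their spread, since 4 of 9 libraries had any read of SERPINE2 and none had a read of TIMP3.

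The place of PLAU in this order depended on how overlapping reads were counted. PLAU (ENSG00000122861.16, chromosome 10, 73909177 to 73917497, plus strand, GRCh38) shares 916 exonic bases with C10orf55, a gene on the minus strand. Its count without regard to strand was 4057 to 7425, whereas the sum of the 2 stranded counts was 7674 to 13820, or 186% to 199% of it. With that sum PLAU was the highest member, at a mean of 144.6 per kb (127 to 158), above TIMP1 at 92.3 (85.3 to 97.5). C10orf55 itself had 2 to 15 counts without regard to strand and 3624 to 6439 in the sum, and reads of the 2 genes cannot be told apart here. TIMP2 gained as well, to 126% to 131%, and has an antisense transcript over 367 of its exonic bases, while the other members with reads stayed within 100% to 100.2%. The CPM values that follow use the counts without regard to strand, and for PLAU they are therefore a lower level than the sum would give.

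**Figure D1:**
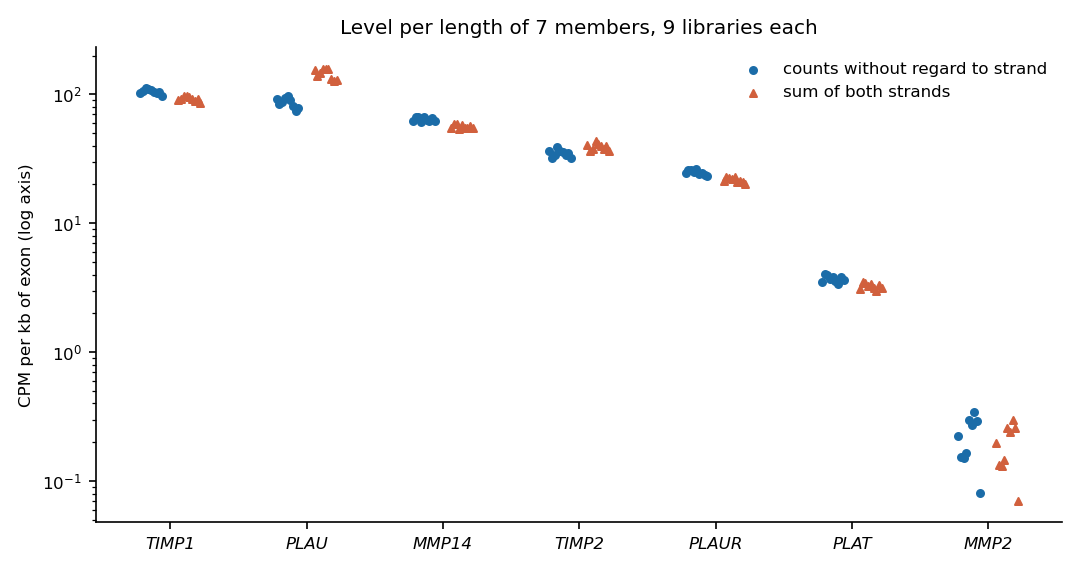
Level per length (CPM per kb of exon, log axis) of the 7 members that passed the filter, with 1 point per library (9 per gene), for counts made without regard to strand (circles) and for the sum of both strands (triangles). PLAU moves from a mean of 86.4 to 144.6 and TIMP2 from 35.0 to 39.2, and PLAU then stands above TIMP1.

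HSPA5 separates the libraries with a GRP78 plasmid from those without. It was at 358.5 to 391 CPM in the Vector libraries, at 5031 to 6145 in WT and at 4765 to 5156 in NLS Mut, so all 6 libraries with a GRP78 plasmid lay above all 3 without. WT and NLS Mut overlapped, so HSPA5 does not check which of the 2 forms a library carried. Plasmid and endogenous HSPA5 transcripts are counted together. The cells were epithelial by their markers: the 6 epithelial genes (EPCAM, CDH1, KRT7, KRT8, KRT18 and KRT19) summed to 4357 to 5107 CPM, the 6 fibroblast genes to 7.29 to 12.97 CPM with DCN at 0, the 5 immune genes to 1.02 to 2.33 CPM and the 4 endothelial genes to 5.87 to 8.82 CPM with none at 0. Of the immune genes CD3E and LYZ were at 0 in every library and PTPRC had 0 to 7 reads. CD68 was at 0 without regard to strand but had 8 to 38 reads in the sum of both strands, so its 0 depends on the counting.

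PLAU was the member that differed between WT and NLS Mut. It was at 275.1, 286.0 and 265.6 CPM in the 3 WT libraries, at 240.0, 217.7 and 230.2 in NLS Mut and at 273.5, 246.5 and 259.5 in Vector. All WT libraries lay above all NLS Mut libraries, NLS Mut also lay below Vector without overlap, and WT and Vector overlapped. The group means were 275.6 ± 10.2 CPM (SD, n = 3) in WT, 229.3 ± 11.2 (SD, n = 3) in NLS Mut and 259.8 ± 13.5 (SD, n = 3) in Vector. The fitted log2 fold change of WT against NLS Mut was 0.27 (standard error, SE, 0.06, and edgeR adjusted p = 0.030 from the quasi-likelihood test over all 18653 genes tested), a ratio of 1.202. Against Vector it was 0.09 for WT (SE 0.06, edgeR adjusted p = 0.62) and -0.18 for NLS Mut (SE 0.06, edgeR adjusted p = 0.16). With a correction for GC content and length these became 0.16 (edgeR adjusted p = 0.13) and -0.105 (edgeR adjusted p = 0.41). Which of the groups lay further from Vector thus depended on the processing. In bulk RNA, fewer cells that make a transcript and less transcript per cell cannot be told apart.

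The difference in PLAU was present on either way of counting. With the sum of both strands the WT libraries were at 467.3, 466.0 and 463.4 CPM, those of NLS Mut at 390.0, 373.5 and 379.9 and those of Vector at 455.0, 411.2 and 432.3, so the 3 groups did not overlap, and the log2 fold change of WT against NLS Mut was 0.29 (edgeR adjusted p = 0.0035). It was called in all 10 alternatives other than leaving out a library, with log2 fold changes of 0.26 to 0.29, and in the 3 fits without a Vector library. It was called in none of the 6 fits that left out a WT or an NLS Mut library, where it was 0.23 to 0.31 with adjusted p-values of 0.060 to 0.25, the highest without NLS Mut replicate 2.

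The receptor and the second activator did not follow PLAU beyond their spread. PLAUR (ENSG00000011422.12, chromosome 19, 43646095 to 43670547, minus strand) was at 110.6, 117.0 and 107.1 CPM in WT, at 108.7, 105.9 and 103.2 in NLS Mut and at 108.5, 116.1 and 116.1 in Vector, and all groups overlapped. The log2 fold change of WT against NLS Mut was 0.07, with a 95% interval of -0.05 to 0.20 (edgeR adjusted p = 0.72). PLAT (ENSG00000104368.19, chromosome 8, 42175233 to 42207724, minus strand) was at 24.6, 25.4 and 23.7 CPM in WT, 22.4, 25.1 and 24 in NLS Mut and 23.2, 26.5 and 26.1 in Vector. Its log2 fold change of WT against NLS Mut was 0.04, with a 95% interval of -0.16 to 0.25 (edgeR adjusted p = 0.92), and the groups overlapped in each comparison.

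SERPINE2 (ENSG00000135919.14, chromosome 2, 223975112 to 224039319, minus strand), the serpin among the members, had 0, 3 and 3 reads in Vector, 0, 0 and 0 in WT and 0, 5 and 3 in NLS Mut, 14 in all. No fold change is given, because 3 reads correspond to 0.109 to 0.170 CPM in these libraries and the values lie at that floor.

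**Figure D2:**
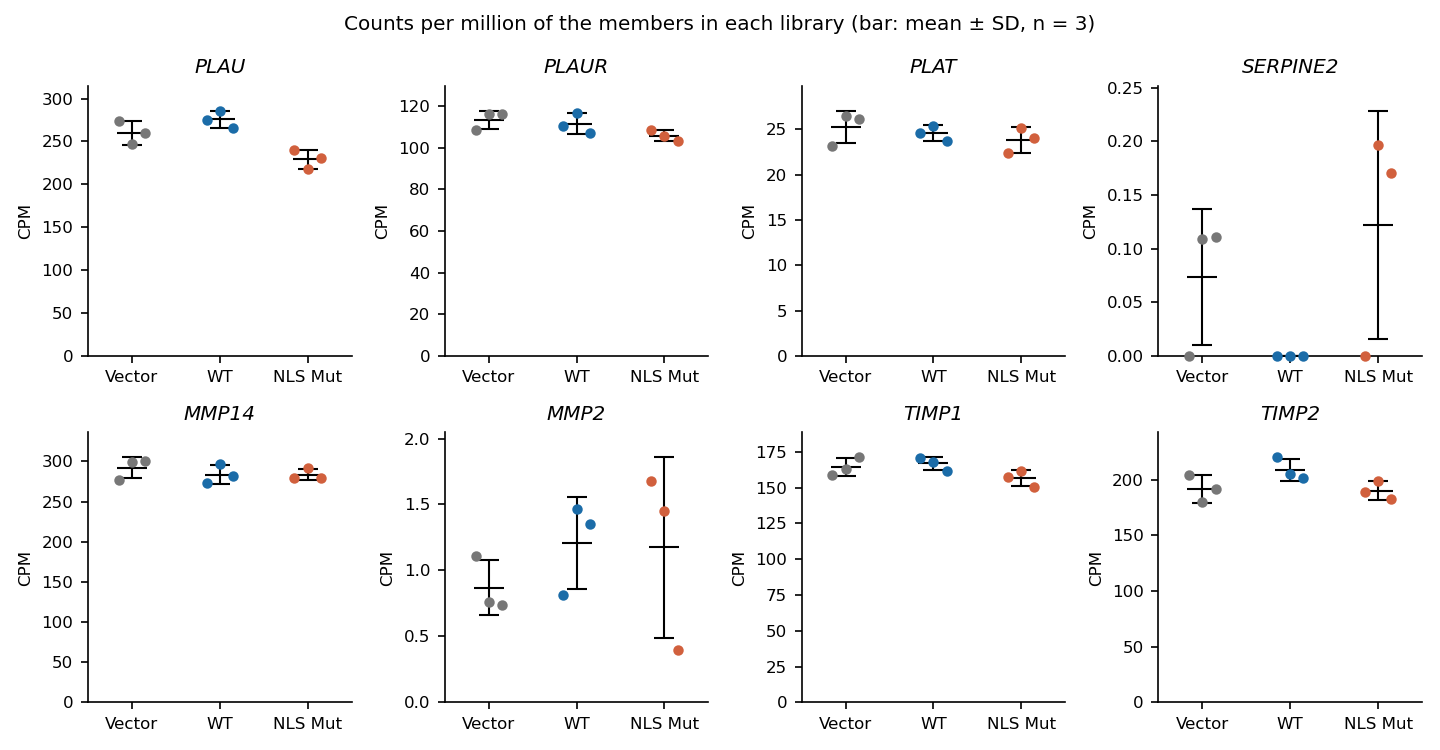
CPM (TMM-scaled, from counts without regard to strand) of 8 members in each of the 9 libraries, with points for libraries and bars for the mean ± SD of 3 libraries; TIMP3 is at 0 in all and not drawn. The 3 WT points of PLAU, from 265.6 to 286.0, lie above the 3 NLS Mut points, from 217.7 to 240.0, while the points of MMP14 overlap in all groups.

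Neither metalloprotease among the members was called. MMP14 (ENSG00000157227.14, chromosome 14, 22836557 to 22849027, plus strand) was at 272.9, 296.2 and 281.2 CPM in WT, at 279.0, 291.4 and 279.7 in NLS Mut and at 276.8, 299.4 and 300.2 in Vector. The means of WT and NLS Mut, 283.4 ± 11.8 and 283.3 ± 6.99 CPM (SD, n = 3 each), were nearly equal. The log2 fold change was 0.00 with a 95% interval of -0.11 to 0.11 (edgeR adjusted p = 1.00), so a change of MMP14 as large as that fitted for PLAU lies outside its interval. Against Vector it was -0.04 for both (adjusted p = 0.84 and 0.82, edgeR). MMP2 (ENSG00000087245.13, chromosome 16, 55389700 to 55506691, plus strand) had only 7 to 38 reads per library, or 0.814, 1.46 and 1.35 CPM in WT, 1.68, 1.45 and 0.397 in NLS Mut and 1.11, 0.760 and 0.740 in Vector. NLS Mut held both the highest and the lowest value. The 95% interval of the log2 fold change of WT against NLS Mut, -0.98 to 1.04 around 0.03 (edgeR adjusted p = 0.99), leaves a difference of up to about 1 in either direction undetectable at this depth.

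TIMP1 and TIMP2 were slightly higher in WT than in NLS Mut without passing the test, and TIMP3 had no reads. TIMP2 (ENSG00000035862.12, chromosome 17, 78852977 to 78925387, minus strand), the inhibitor that also bridges MMP14 and MMP2, was at 220.3, 204.8 and 201.2 CPM in WT, at 189.2, 199.0 and 182.3 in NLS Mut and at 204.4, 179.7 and 191.4 in Vector. WT lay above NLS Mut without overlap, by a log2 fold change of 0.13 (SE 0.06, edgeR adjusted p = 0.40), and overlapped Vector. TIMP1 (ENSG00000102265.12, chromosome X, 47582313 to 47586789, plus strand, within an intron of SYN1 on the other strand) was at 170.5, 168.0 and 161.9 CPM in WT, at 157.3, 161.6 and 150.7 in NLS Mut and at 158.5, 163.0 and 171.3 in Vector. Here too WT and NLS Mut did not overlap, by the small margin between 161.9 and 161.6, and the log2 fold change was 0.09 (SE 0.06, edgeR adjusted p = 0.60). TIMP3 (ENSG00000100234.12, chromosome 22, 32801701 to 32863043, plus strand) had 0 reads in all 9 libraries, which allows up to 0.170 CPM in the shallowest of them.

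Across the members, 1 of the 7 tested was called between WT and NLS Mut, beside 0.504% of all genes tested. All 7 had a log2 fold change above 0 (median 0.07), against 9112 of 18653 genes and a median of -0.01 over all genes. For MMP14 (0.0004, SE 0.06) and MMP2 (0.03, SE 0.52) it was small beside its error, and the sign changed in some alternative fits. For PLAU, TIMP1 and TIMP2, 3 of 7, the 2 groups did not overlap, beside 17.7% of all genes tested. Between WT and Vector edgeR called 0 of 7 (0 at an unadjusted p under 0.05 and 0 by DESeq2), beside 0.558% of genes, and in none of the 7 did the groups stand apart, beside 13.1%. Between NLS Mut and Vector edgeR called 0 of 7 (1 at an unadjusted p under 0.05, PLAU, and 0 by DESeq2), beside 0.793% of genes, and the groups stood apart for 1, PLAU, beside 18.1%. In that comparison 6 of 7 members lay below 0, with a median of -0.07. Over all genes 9262 of 18653 lay above 0, with a median of -0.0017. With a correction for GC content and length MMP14 (0.06), TIMP1 (0.05) and TIMP2 (0.04) lay above 0 there. The 3 comparisons share libraries, so these counts are not independent of each other, and 3 libraries against 3 cannot go below an exact permutation p of 0.10 for a single gene.

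**Figure D3:**
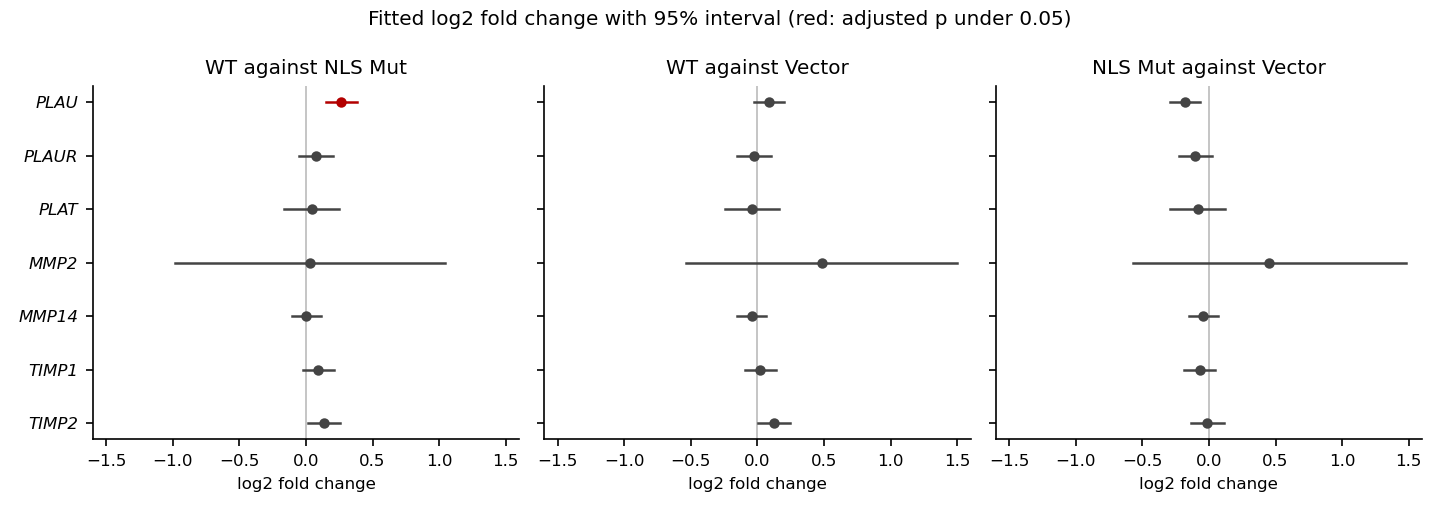
Fitted log2 fold change (x axis) of the 7 tested members (y axis) in the 3 comparisons, with 95% intervals from edgeR's standard errors; red marks an adjusted p under the threshold. PLAU in WT against NLS Mut, at 0.27, is the only red point, and the interval of MMP2 is the widest, from -0.98 to 1.04 there.

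Ratios per kb within each library were taken between MMP14 and TIMP2 and between the TIMPs. The log2 ratio of MMP14 to TIMP2 was 0.64, 0.87 and 0.82 in WT, 0.90, 0.89 and 0.95 in NLS Mut and 0.77, 1.07 and 0.98 in Vector. WT lay below NLS Mut without overlap, by the small margin between 0.87 and 0.89, with means of 0.78 ± 0.12 and 0.91 ± 0.04 (SD, n = 3 each). The share of other gene pairs whose ratios stand apart in this way is not given here. The log2 ratio of TIMP1 to TIMP2 had means of 1.55 ± 0.04 in WT, 1.59 ± 0.02 in NLS Mut and 1.65 ± 0.13 in Vector (SD, n = 3 each), and it overlapped between all groups.

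Among the partners of urokinase, LRP1 and S100A10 were also higher in WT than in NLS Mut. Of a list of 21 other genes of the plasminogen system, chosen with earlier results of these data known, 15 were tested. Of these, 2 were called between WT and NLS Mut, both higher in WT, beside 0.504% of all genes tested. LRP1, the endocytic receptor that clears complexes of urokinase with its inhibitors and PLAUR, was at 327.5, 313.5 and 314.3 CPM in WT, at 247.5, 230.2 and 253.5 in NLS Mut and at 293.1, 276.5 and 268.2 in Vector. The 3 groups did not overlap, and the log2 fold change of WT against NLS Mut was 0.39 (SE 0.06, edgeR adjusted p = 3.48e-04), called in all 19 alternatives. S100A10, which with annexin A2 binds plasminogen at the cell surface, was at 370.4, 427.7 and 383.6 CPM in WT, at 328.4, 331.6 and 330.8 in NLS Mut and at 360.0, 373.1 and 354.0 in Vector. Its log2 fold change of WT against NLS Mut was 0.25 (SE 0.06, edgeR adjusted p = 0.030), and the call was lost without WT replicate 2 or 3 and without any of the NLS Mut libraries (adjusted p up to 0.15).

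The other tested genes of the list did not pass the threshold between WT and NLS Mut (edgeR), and DESeq2 called 3 of the 15. In that comparison DESeq2 called 309 of all 18653 genes. MRC2, a collagen receptor that associates with PLAUR, had 108.5 ± 6.86 CPM (SD, n = 3) in WT, 98.2 ± 3.58 (SD, n = 3) in NLS Mut and 110.6 ± 1.21 (SD, n = 3) in Vector. ST14, the membrane protease matriptase, is not on this list. It had 96.8 ± 6.76, 87.7 ± 6.75 and 98.5 ± 8.39 CPM (SD, n = 3 each) in the same order. Neither MRC2 nor ST14 was called in any of the 3 comparisons (edgeR). ENO1, a glycolytic enzyme that also serves as a plasminogen receptor, was the most abundant of the list per kb, at 380 CPM per kb, with a log2 fold change of 0.00 between WT and NLS Mut (edgeR adjusted p = 0.99).

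**Figure D4:**
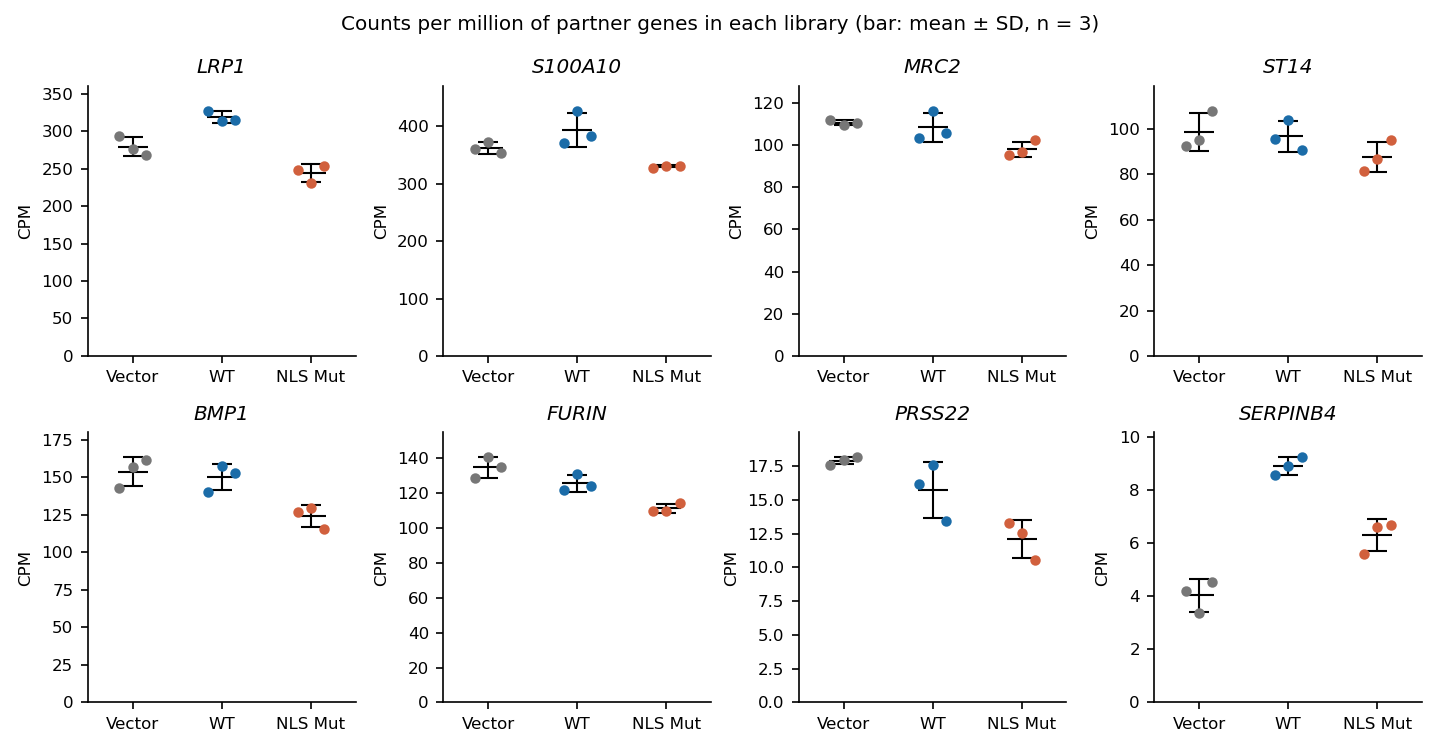
CPM of 8 genes that are not members in each of the 9 libraries, with points for libraries and bars for the mean ± SD of 3 libraries. The means of LRP1 and S100A10 are highest in WT and lowest in NLS Mut, and BMP1, FURIN and PRSS22 are lowest in NLS Mut.

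In the wider set of extracellular and lysosomal proteases and inhibitors, 1 to 3 genes were called in a comparison. Together with the plasminogen system 7 lists held 152 genes, of which 108 were tested. Between WT and NLS Mut edgeR called LRP1 and S100A10 only, 2 of 108 or 1.85% beside 0.504% of all genes tested, and the median log2 fold change was 0.11, with 78 of 108 above 0. Between WT and Vector it called 1, SERPINB4 (0.926% beside 0.558%). Between NLS Mut and Vector it called 3 (2.78% beside 0.793%), all lower in NLS Mut. There 30 of 108 lay above 0, with a median of -0.11. Over all 18653 genes tested 9112 lay above 0 in WT against NLS Mut and 9262 in NLS Mut against Vector. None of the 13 tested genes among the other matrix metalloproteases and none of the 5 among the other metalloprotease inhibitors was called in any comparison by edgeR. At an unadjusted p under 0.05 the former list gave 1, 0 and 3 genes and the latter 1, 1 and 0 in WT against NLS Mut, WT against Vector and NLS Mut against Vector, and DESeq2 called 1, 0 and 1 of the former and 0 of the latter. Over all 18653 genes DESeq2 called 309, 262 and 413 in these comparisons. MMP15, a membrane-anchored relative of MMP14 and the most abundant of the former list, was at 76.8 ± 6.61, 74.9 ± 4.37 and 83.8 ± 6.53 CPM (SD, n = 3 each) in WT, NLS Mut and Vector, and SPOCK1, a matrix proteoglycan that leads the latter, at 158.2 ± 13.4, 140.3 ± 6.65 and 138.9 ± 6.76 CPM.

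The 3 genes called lower in NLS Mut than in Vector were proteases. BMP1, an astacin protease that trims procollagens, fell by 0.31 on the log2 scale (SE 0.07, edgeR adjusted p = 0.020), from 153.9 ± 9.68 to 124.1 ± 7.28 CPM (SD, n = 3 each). FURIN, the proprotein convertase that activates MMP14, fell by 0.28 (SE 0.06, edgeR adjusted p = 0.026), from 134.7 ± 5.90 to 111.2 ± 2.59 CPM (SD, n = 3 each). PRSS22, a secreted serine protease reported to act on pro-urokinase, fell by 0.56 (SE 0.13, edgeR adjusted p = 0.033), from 17.9 ± 0.272 to 12.1 ± 1.40 CPM (SD, n = 3 each). None of the 3 was called with a correction for GC content and length, without Vector replicate 2 or 3, or without any of the NLS Mut libraries, with adjusted p-values of up to 0.25. SERPINB4, a serpin whose near-identical neighbour SERPINB3 can share its reads, was higher in WT than in Vector by a log2 fold change of 1.14 (SE 0.18, edgeR adjusted p = 0.0014), at 8.93 ± 0.333 against 4.04 ± 0.611 CPM (SD, n = 3 each), and its level is uncertain for that reason. The remaining lists were led per kb by ADAM9, a membrane sheddase, PRSS23, a secreted serine protease, CTSD, a lysosomal aspartic protease, and SERPINH1, a collagen chaperone of the serpin fold, and none of these was called in any of the 3 comparisons (edgeR).

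Over the 9 libraries PLAU and MMP14 ran with different genes. Of 15045 tested genes whose mean reached 1 CPM, those with the highest Pearson correlation of log2 CPM with PLAU were CYBRD1 (r = 0.951), MST1R (0.951), EPHB6 (0.949), FAM83A (0.942) and EFHC2 (0.940). CYBRD1 averaged only 1.19 CPM. MST1R, a receptor tyrosine kinase, was at 128.0 CPM on average in WT, 103.3 in NLS Mut and 126.7 in Vector. FAM83A had means of 138.4, 115.4 and 132.3 CPM in the same order. With MMP14 they were GUK1 (r = 0.976), EMP3 (0.970), CCDC102A (0.966), SHMT1 (0.959) and RPL18 (0.955), each with its highest value in Vector replicate 2 or 3. RPL18, a ribosomal protein gene, was at 450.3 and 455.3 CPM there and at 381 to 426 in the other libraries. These correlations describe 9 libraries that share their normalization, and no p is given. The genes were picked for likeness over these same libraries, so a group pattern shared with PLAU or MMP14 follows from the choice.

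**Figure D5:**
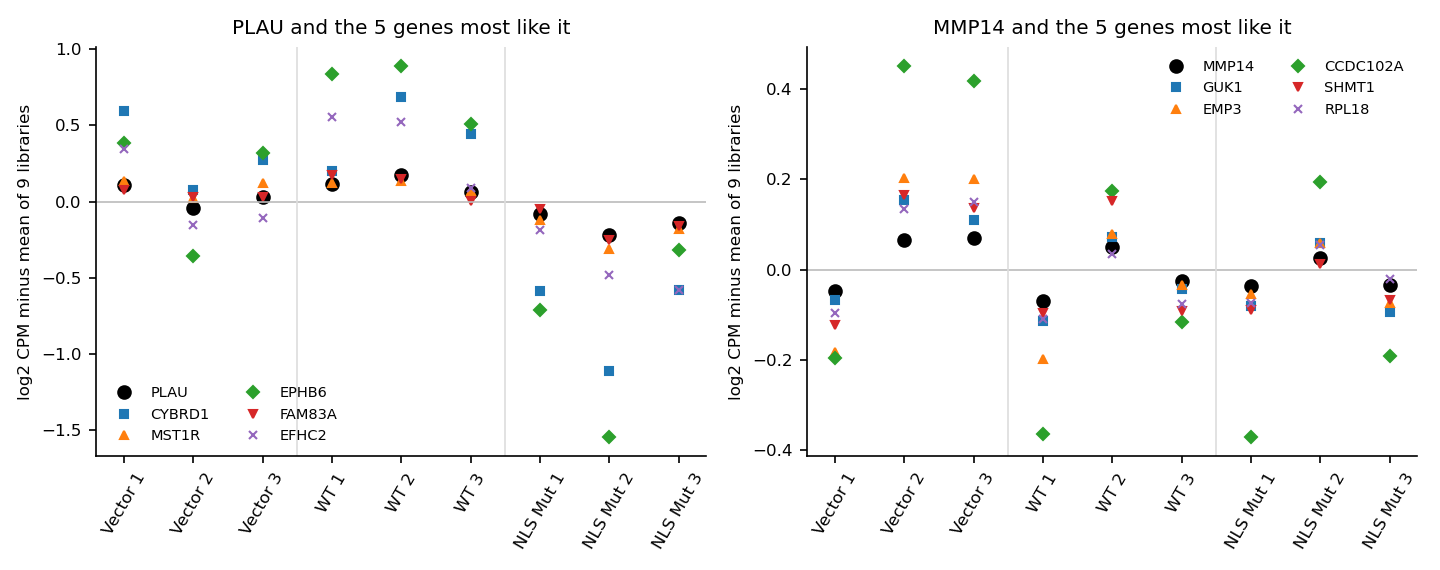
log2 CPM of each gene minus its mean over the 9 libraries (y axis) in each library (x axis, with lines between groups), for PLAU (left) and MMP14 (right) in black and the 5 genes most like each in colour. Each gene on the left has its lowest value in an NLS Mut library, and each gene on the right its highest in Vector replicate 2 or 3. The genes were chosen for their likeness to PLAU or MMP14 over these same libraries.

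Properties of the libraries moved with some of these values. The slope of a library's log2 counts on GC content, relative to the average library and per 10 percentage points, was 0.10 and 0.11 in Vector replicates 2 and 3, the libraries in which MMP14 (58.9% GC) was highest, -0.08 in WT replicate 1, where MMP14 was lowest, and -0.04 to 0.03 in the others. With the correction for GC content and length MMP14 in NLS Mut against Vector became 0.06 in place of -0.04, both far from the threshold. Between WT and NLS Mut, 2 of the 6 epithelial markers were called higher in WT, beside 0.504% of all genes tested. They were CDH1 (log2 fold change 0.27, adjusted p = 0.036, edgeR) and KRT19 (0.23, adjusted p = 0.044, edgeR). None of the 6 was called in WT against Vector, beside 0.558% of genes. In NLS Mut against Vector CDH1 alone was called, lower in NLS Mut, beside 0.793% of genes. The log2 fold changes of the 6 markers were -0.25 to -0.09 there. The summed epithelial markers were at 4771 to 4846 CPM in WT and at 4357 to 4557 in NLS Mut, and the summed fibroblast markers at 10.9 to 12.97 and 7.29 to 9.08 CPM. Their part in the difference of PLAU was not tested. Leaving out Vector replicate 1, a library of neither group, raised the genes called between WT and NLS Mut from 94 to 388, and PLAU was then called at 0.27 (edgeR adjusted p = 8.79e-04) while no other member was.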

How the data were processed

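RNA-Seq was done on 9 libraries of H1975 cells. Reads per gene were deposited by the authors as raw counts in STAR's layout (STAR 2.7.9a, DESeq2 1.36.0 and GRCh38.p14 per the submitters' notes; the annotation is not given in the sources used here). The unstranded column was taken because 50.6% to 51.9% of stranded reads fell on the forward strand, and the 4 summary lines (27.6% to 30.7% of reads) were left out. Coordinates and exonic lengths came from GENCODE release 29 (GRCh38), which held 58342 of 61544 genes; 61445 had a symbol.

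Counts were filtered with filterByExpr (18653 genes), normalized by TMM and fitted with edgeR 4.0.16 in R 4.3.3 in 1 quasi-likelihood model over 9 libraries; p-values were adjusted by Benjamini-Hochberg over all genes tested, with a threshold of 0.05. The median biological coefficient of variation was 11.2%. Chi-square values per degree of freedom between replicates were 3.56 to 12.6, more than counting error alone gives. Each library was counted as a sample, but these values cannot show whether the libraries came from separate cultures. Procedures were tested on simulated data. Intervals and floors (3 counts) cover counting or fitting error only. Members, lists and the rule for named genes (members, HSPA5, LRP1, ST14, MRC2, called genes and the most abundant gene of each list, and the 5 genes most correlated with PLAU and with MMP14) were chosen with earlier results of these data known; 1 further gene of the rule is not reported here. Alternatives were DESeq2 1.42.0, its size factors, library size alone, other filters, both strands summed, the replicate number as a block, a GC and length correction (loess, span 0.3), only the groups compared and leaving out each library.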

Additional observations from a re-analysis of the deposited data

Results flagged for a closer look

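For the 5 genes named here the WT and the NLS Mut libraries lay on opposite sides of the Vector mean. They were picked from these same libraries, so the p-values of WT against NLS Mut given here are descriptions and no independent test, and none of the 5 passed against Vector in WT or in NLS Mut (edgeR adjusted p = 0.10 to 0.97). PLAU gave a log2 fold change of 0.27 (adjusted p = 0.030, edgeR), with 3 of 3 WT libraries above and 3 of 3 NLS Mut libraries below the Vector mean. The call of PLAU was lost in 6 of 9 fits that left out a library. LRP1 gave 0.39 (adjusted p = 3.48e-04, edgeR) and S100A10 0.25 (adjusted p = 0.030, edgeR), with the same split of libraries. PRSS23, at 0.18 (adjusted p = 0.076, edgeR), and SERPINH1, at 0.16 (adjusted p = 0.22, edgeR), had the same split and did not pass. The NLS Mut libraries of PRSS23, at 685.4, 691.1 and 692.8 CPM, lay just below its Vector mean of 693.7 and overlapped Vector. Its log2 fold change of NLS Mut against Vector was -0.01. SERPINH1 overlapped Vector in WT and in NLS Mut. The share of all genes with such a split is not given here. No cause was tested for any of them.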

How the results depend on the processing

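Of 399 refits of the members' log2 fold changes, 368 kept their direction and side of the threshold. PLAU in WT against NLS Mut was 0.23 to 0.31 over all 19 alternatives and lost its call in the 6 fits without a WT or NLS Mut library, so the members called there were 0 to 1 when 1 library was left out. With the replicate block it was 0.27 (adjusted p = 0.014, edgeR). Whether the replicate numbers pair the libraries is not known. Same-numbered libraries had correlations of -0.04 to 0.32 between their deviations, the highest between Vector and WT in replicates 1 (0.32) and 2 (0.22). Differently numbered libraries were not compared, so these values cannot decide it. The block raised the genes called in WT against NLS Mut from 94 to 212. In WT against Vector they rose from 104 to 232, and in NLS Mut against Vector from 148 to 230. The causes of these shifts were not tested.

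A sign changed in 25 refits, none of them called. With the GC and length correction, without and with the block, MMP14 became 0.0595 and 0.0588 in NLS Mut against Vector, 0.0573 and 0.0571 in WT against Vector and -0.0022 and -0.0017 in WT against NLS Mut, PLAUR 0.0511 and 0.0502 in WT against Vector, and in NLS Mut against Vector TIMP1 0.0502 in both and TIMP2 0.0431 and 0.0459. MMP14 in WT against NLS Mut was -0.0043 with library size alone and -0.0001 with the block, and TIMP1 in WT against Vector was -0.0060 with library size alone. With 1 library left out, MMP14 ranged from -0.024 to 0.033 and MMP2 from -0.36 to 0.36 in WT against NLS Mut, PLAUR from -0.059 to 0.0058 and TIMP1 from -0.0046 to 0.0509 in WT against Vector, and TIMP2 from -0.0609 to 0.0287 in NLS Mut against Vector.

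Of the 108 other proteases and inhibitors, 2 were called in WT against NLS Mut. The number was 9 with DESeq2, 8 with the GC and length correction, 10 with that correction and the block, 5 with the block, 4 with at least 1 CPM in 3 libraries, 5 without a filter, 9 with only the 2 groups compared and 1 to 11 with 1 library left out. In WT against Vector 1 was called, and 5, 4, 4 and 2 with DESeq2, the correction, the correction with the block and no filter, and 1 to 12 with 1 library left out. In NLS Mut against Vector 3 were called, 8 with DESeq2, 6 without a filter and 0 to 12 with 1 library left out. With the GC and length correction the number there was 3 as well, and 4 with that correction and the block. Neither of these sets held BMP1, FURIN or PRSS22, and both held CTSS and ENO1. ENO1 was called with the correction in WT against Vector too. The highest counts all came without Vector replicate 1, where the genes called over the whole table rose to 388, 1256 and 1002, and DESeq2 called 309, 262 and 413, the GC and length correction 424, 200 and 286, no filter 225, 289 and 240, only the 2 groups 315, 26 and 151 and the correction with the block 489, 242 and 340. The lowest numbers with 1 library left out were 27 in WT against NLS Mut and 33 in NLS Mut against Vector, both without NLS Mut replicate 2, and 19 in WT against Vector, without WT replicate 1. The split of higher and lower calls, 56 and 38, 40 and 64 and 55 and 93 in these comparisons, was 195 and 229, 136 and 64 and 212 and 74 with the correction, and 56 and 45, 26 and 115 and 39 and 133 with library size alone. Levels per kb moved with the length used: with the longest transcript PLAUR was at 68.5 in place of 24.8 and PLAT at 7.09 in place of 3.71. Depth limits MMP2, SERPINE2 and TIMP3.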
